A study of Mus musculus with 28 samples.

Results

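The genes described here are 38 genes of mouse chromosome 7 that lie next to one another in 5 runs of 7 genes, with 3 further genes beside one of the runs. They are 38 of 18193 genes with a probe set of their own symbol on the array, and all 38 were among the 13931 genes bright enough to be tested. They were chosen on measured values. Each run is the stretch of 7 neighbouring genes with the highest mean difference between one glioma and the median of the other gliomas, and the 3 further genes extend a run in one medulloblastoma. The high values in these tumours are therefore given as a description, with no test. Each run is called here by one of its genes. The Rras2 run was chosen in glioma B7, the Deaf1 run in glioma B1, the Aen run in glioma C3, the Echs1 run in glioma A4 and the Fgfr2 run in glioma B2. The 3 genes Inpp5a, Adgra1 and Kndc1, called the extension genes, were chosen in medulloblastoma C6.

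RNA was measured on 28 one-colour Affymetrix arrays, with 6 gliomas, 10 medulloblastomas and 12 normal brains of mice. The gliomas comprised 1 Rictor-null tumour (hGFAP-Cre::p53-/-; Rictor-/-, code C3), 4 Rictor-heterozygous tumours (hGFAP-Cre::p53-/-; Rictor+/-, codes B1, B2, B3 and B7) and 1 tumour with p53 loss only (hGFAP-Cre::p53-/-, code A4). The medulloblastomas comprised 5 Rictor-null, 2 Rictor-heterozygous and 3 p53-null-only tumours. The normal brains comprised 5 Rictor-null, 5 Rictor-heterozygous and 1 p53-null-only sample of the same genotypes, and 1 brain of normal mice with intact p53. Every group except that last one thus carried the Cre transgene, driven by the human GFAP promoter and active in neural precursors and astrocytes, and had lost p53. Rictor is a subunit of the mTORC2 kinase complex, and the study compared its loss in glioma and in medulloblastoma. No ages were given in the labels used here. Nothing in the labels says whether arrays of one group came from separate animals, so a p-value here reflects only the scatter among these arrays, which may be technical.

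Genes that sit side by side on a chromosome mostly do unrelated jobs, and each is switched on and off by its own promoter. In tumours, whole stretches of neighbours can change together when the DNA that carries them is gained or lost, and tumours without p53 are known for such changes. The arrays measured RNA only. DNA copy number was not measured, and its part in the values below was not tested.

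The promoters of 35 of the 38 genes were in the RefSeq table of assembly GRCm38.p6, as 250 bases before and 50 bases after each start. They are shown because some neighbours share the stretch between their starts while others do not. Mrpl46 and Mrps11 of the Aen run are read away from each other from starts only 41 bases apart (chr7:78783090-78783130, plus strand). Deaf1 and Tmem80 of the Deaf1 run have starts 404 bases apart, of which the 250 nearest Tmem80 are shown (chr7:141327880-141328129, plus strand). Rras2 (chr7:114117782-114118031, minus strand) and Copb1 (chr7:114254681-114254930, minus strand) are neighbours with promoters of their own, of which the 250 bases before the start are shown. Each sequence is written 5′ to 3′ in lower case, and capitals mark the GC box, GGGCGG or its reverse complement CCGCCC.
Mrpl46/Mrps11: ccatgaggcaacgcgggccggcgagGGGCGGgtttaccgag
Deaf1/Tmem80: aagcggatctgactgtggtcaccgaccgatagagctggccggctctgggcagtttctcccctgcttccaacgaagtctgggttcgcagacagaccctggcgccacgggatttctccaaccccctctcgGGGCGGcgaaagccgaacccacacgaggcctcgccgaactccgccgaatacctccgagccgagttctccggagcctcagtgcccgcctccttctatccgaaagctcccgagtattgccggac
Rras2: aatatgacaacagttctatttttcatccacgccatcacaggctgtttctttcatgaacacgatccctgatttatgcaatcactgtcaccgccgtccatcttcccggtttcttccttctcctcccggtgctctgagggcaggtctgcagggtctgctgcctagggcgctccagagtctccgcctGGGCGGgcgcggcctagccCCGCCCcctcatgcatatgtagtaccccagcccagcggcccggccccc
Copb1: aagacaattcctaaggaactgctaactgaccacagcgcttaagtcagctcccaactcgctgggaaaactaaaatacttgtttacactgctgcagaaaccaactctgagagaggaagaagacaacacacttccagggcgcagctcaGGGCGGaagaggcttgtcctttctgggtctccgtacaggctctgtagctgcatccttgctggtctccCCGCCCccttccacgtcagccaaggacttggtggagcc

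The GC box was found on either strand for 25 of the 35 genes, or 71.4%, against 35.4% of 27025 genes. CCAAT or its reverse complement ATTGG was found for 15 of 35 (42.9%, against 37.5% of the 27025 genes), and TATAAA or TTTATA for 3 of 35 (8.57%, against 14.3%). CACGTG, the E-box read alike on both strands, was found for Rnh1 and Aen, or 5.71% of the 35, against 6.86% of the 27025. The members had to be bright on these arrays (mean log2 intensity above 6), while the 27025 genes did not. The shares are therefore not like for like, and their difference was not tested. Genes with several starts may also have had more chances of a match. None of these motifs is contained in another, and a match describes the sequence only.

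Runs were sought in each of the 16 tumours as the mean log2 difference over 7 neighbouring genes among 8884 bright genes (mean log2 intensity above 6). Chromosome 7 holds 558 of those genes and 6.3% of the 8762 windows of 7. The log2 difference of a gene is log2(intensity + 6.3) in a tumour minus the median of the same value over the other tumours of its tissue, a scale that understates changes of dim genes. The mean over the run was 4.33 for the Rras2 run in glioma B7, against 1.06 for that tumour's highest run on any other chromosome. It was 3.84 against 1.0 for the Deaf1 run in glioma B1, and 2.62 against 0.95 for the Aen run in glioma C3. For the Echs1 run in glioma A4 the values were 2.28 against 1.12, and for the Fgfr2 run in glioma B2 they were 1.94 against 1.58. The highest run lay on chromosome 7 in 6 of 6 gliomas and in 1 of 10 medulloblastomas. In 5 of the 6 gliomas it was a member run, which the choice of the members had fixed in advance. The brightness limit was also the one at which these runs came out, so the count is a description only. In the remaining glioma, B3, the highest run had a mean of 1.42 and held no member. That tumour's highest run on any other chromosome had a mean of 1.34. In medulloblastoma C6 the highest run had a mean of 3.02 and was made of the 3 extension genes followed by Tubgcp2, Caly, Fuom and Echs1 of the Echs1 run.

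**Figure D1:**
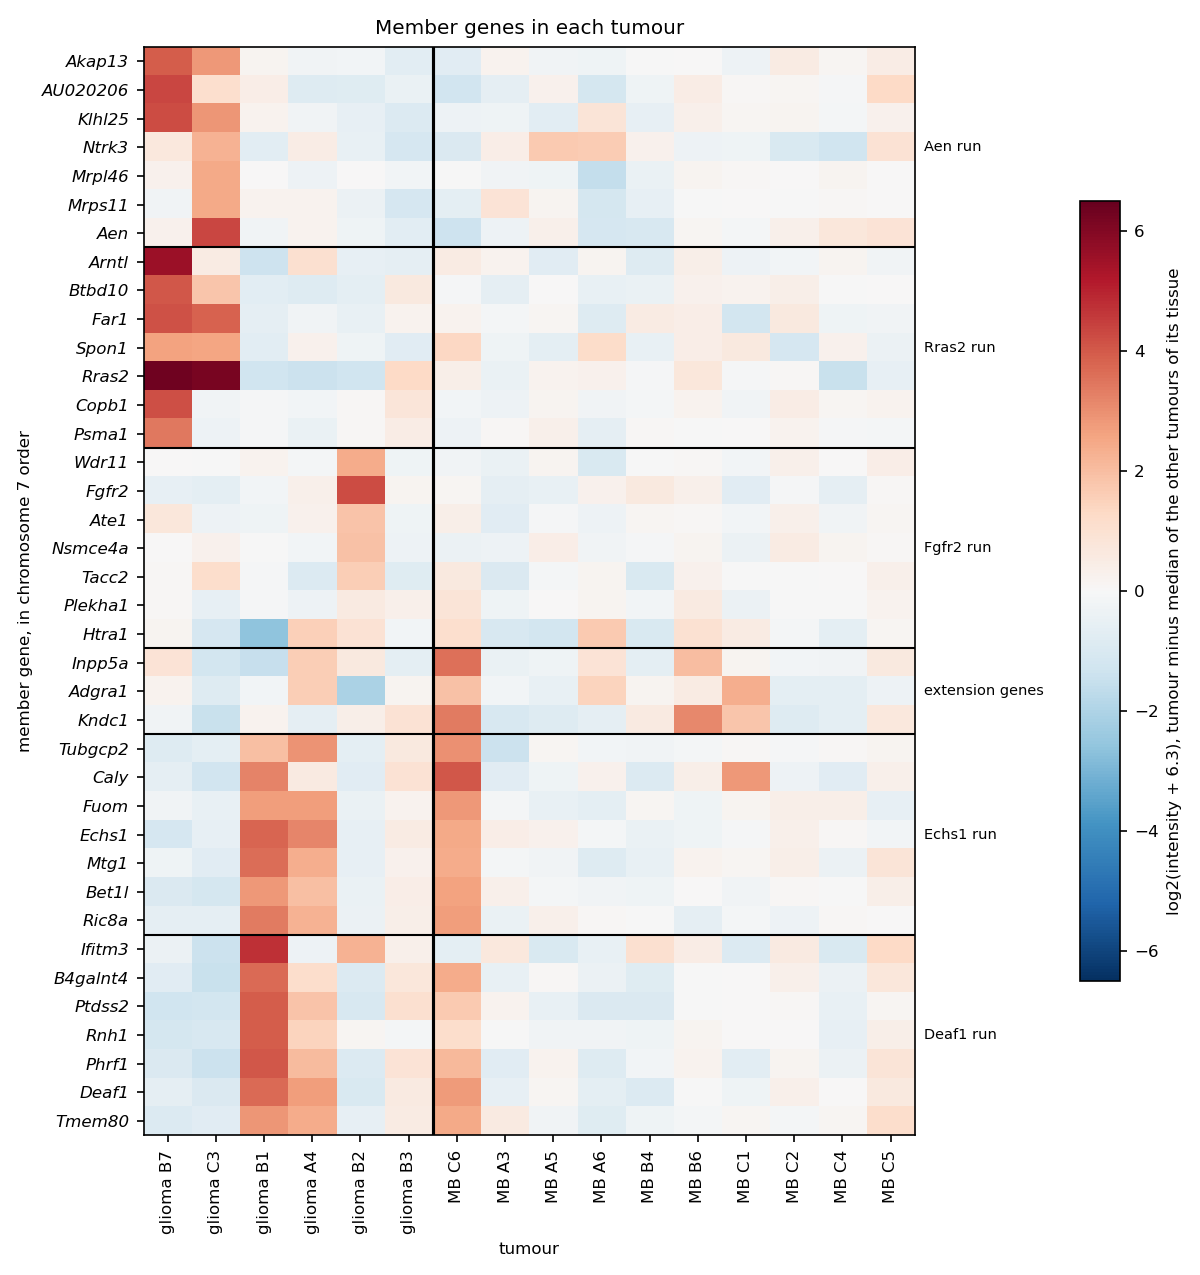
Each cell is the log2 difference of 1 member gene in 1 tumour from the median of the other tumours of its tissue (6 gliomas left of the line, 10 medulloblastomas, MB, right of it), with genes in chromosome 7 order from top to bottom. Gliomas B7 and C3 are raised in the upper 2 blocks and glioma B2 in the third. Medulloblastoma C6 is raised in the extension genes, as is glioma A4 in 2 of the 3. Gliomas B1 and A4 and medulloblastoma C6 are raised in the Echs1 and Deaf1 blocks.

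The Rras2 run was raised in glioma B7 as a block with sharp ends. All 7 genes were more than 2-fold (1 on the log2 scale) above the median of the other gliomas, against 4.66% of all tested genes in that tumour, and all 7 had their highest value of the 28 arrays there. Their median log2 difference was 4.16, with a range of 2.64 for Spon1 to 6.35 for Rras2. These are the values that chose the run.

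Rras2, also called TC21, is a small GTPase close to the classical RAS proteins that can transform cells. Its intensity was 5269 in glioma B7 and 4614 in glioma C3, against 52.8, 57.0, 58.5 and 150.2 in gliomas A4, B1, B2 and B3. It ranged from 21.8 to 112 with a median of 67.1 in the 10 medulloblastomas. Both high gliomas lay far above the highest of the other 4, and no medulloblastoma overlapped them. In normal brain Rras2 ranged from 43.8 to 701 with a median of 99.2, and the highest of these, normal brain B4, was above all other normal brains, of which the next was 208 in C3. The second probe set of Rras2 read 4345 in glioma B7 and 4258 in glioma C3, and 521 in normal brain B4, against 25.3 to 200 in the other normal brains.

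Copb1 and Psma1 end the run on its far side. Copb1 encodes beta-COP of the COPI coat that carries vesicles from the Golgi, and read 5349 in glioma B7, against 277, 292, 312, 269 and 502 in gliomas A4, B1, B2, C3 and B3. Psma1, an alpha subunit of the 20S proteasome, read 5806 in glioma B7, against 415, 526, 553, 439 and 739 in the same 5 gliomas. Both were high in glioma B7 alone among the gliomas, C3 included. At the near end, Arntl encodes BMAL1, the transcription factor at the centre of the circadian clock. It read 2809 in glioma B7, against 115, 27.6, 53.8, 80.4 and 50.7 in gliomas A4, B1, B2, C3 and B3, and 39.9 to 99.6 in medulloblastomas.

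Between these ends, 4 genes were high in both gliomas. Glioma C3 was more than 2-fold above the median of its fellows in Btbd10, Far1, Spon1 and Rras2 and not in Arntl, Copb1 or Psma1. Far1, a peroxisomal reductase that makes fatty alcohols for ether lipids, read 3695 in glioma B7 and 2902 in glioma C3, against 158 to 240.4 in the other 4 gliomas. Spon1, the secreted matrix protein F-spondin, read 4395 in glioma B7 and 4251 in glioma C3, against 521 to 864 in the others. Btbd10, a BTB-domain protein, was less even, with 3735 in glioma B7 and 799 in glioma C3, against 197 to 359. The raised stretch in glioma C3 was thus narrower than in glioma B7 by 3 genes. The genes just outside had log2 differences in glioma B7 of 0.68 for Parva, 0.03 for Tead1 and −0.30 for Rassf10 on one side. On the other side they were −0.13 for Pde3b, −0.64 for Insc and 0.86 for Sox6.

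The Aen run was raised over its whole length in glioma C3 and over its first 3 genes in glioma B7. All 7 genes were more than 2-fold up in glioma C3, against 2.38% of all tested genes in that tumour, with a median log2 difference of 2.48 and a range of 1.09 for AU020206 to 4.34 for Aen. Glioma C3 was the highest glioma in 4 of the 7, and glioma B7 was higher in Akap13, AU020206 and Klhl25. Akap13, an anchor for protein kinase A, read 1449 in glioma C3 and 3155 in glioma B7, against 142 to 229 in the other 4 gliomas. Klhl25, an adaptor of a cullin ubiquitin ligase, read 606 in glioma C3 and 1564 in glioma B7, against 46.0 to 91.3. AU020206, a locus known by its clone name, read 334 in glioma C3 and 3261 in glioma B7, against 115 to 214. These 3 neighbours were high in both gliomas, and the order of the tumours was B7 above C3 in each.

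The next 4 genes separated glioma C3 from glioma B7. Aen encodes a nuclease that p53 switches on in cells with intact p53, and read 1419.6 in glioma C3, against 78.8, 75.8, 64.1, 61.3 and 44.4 in gliomas B7, A4, B1, B2 and B3. Mrpl46 of the large mitochondrial ribosomal subunit read 817 in glioma C3, against 112 to 177 in the other gliomas. Mrps11 of the small mitochondrial subunit, which shares the 41 bases with Mrpl46, read 730.4 in glioma C3 against 65.8 to 147. Both genes of this pair were therefore raised in the same tumour, as were the others of the run that do not share a promoter. Ntrk3, the TrkC receptor for neurotrophin-3, read 991 in glioma C3 and 329 in glioma B7, against 130 to 289 in gliomas A4, B1, B2 and B3.

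Before the run, Sv2b had a log2 difference of 3.39 in glioma C3 and 2.57 in glioma B7, while the next genes out, Slco3a1 and St8sia2, had −0.77 and 0.20 in glioma C3. Beyond Aen, the differences in glioma C3 were −0.03 for Isg20, −0.77 for Acan and 1.67 for Hapln3. Of the 2 dim genes inside the run, Det1 had a difference of 1.37 in glioma C3. A running median over 5 bright genes was above 1 in glioma C3 from Sv2b to Mir9-3hg, a stretch of 13 genes holding all 7 members, and again from Btbd10 to Rras2. Another stretch of glioma C3, of 11 genes from Ap2a2 to Tssc4 with a median of 1.43, lay beyond the Deaf1 run and held no member. In glioma B7 it was above 1 from Sv2b to Klhl25 and from Tead1 to Psma1, where the medians were 4.10 and 4.09. Further stretches of glioma B7 between the 2 runs held no member, with medians of 1.72 from Mfge8 to Idh2, 1.14 from Rab30 to Ndufc2, 1.25 from Ints4 to Uvrag and 1.31 from Slco2b1 to Rnf121.

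**Figure D2:**
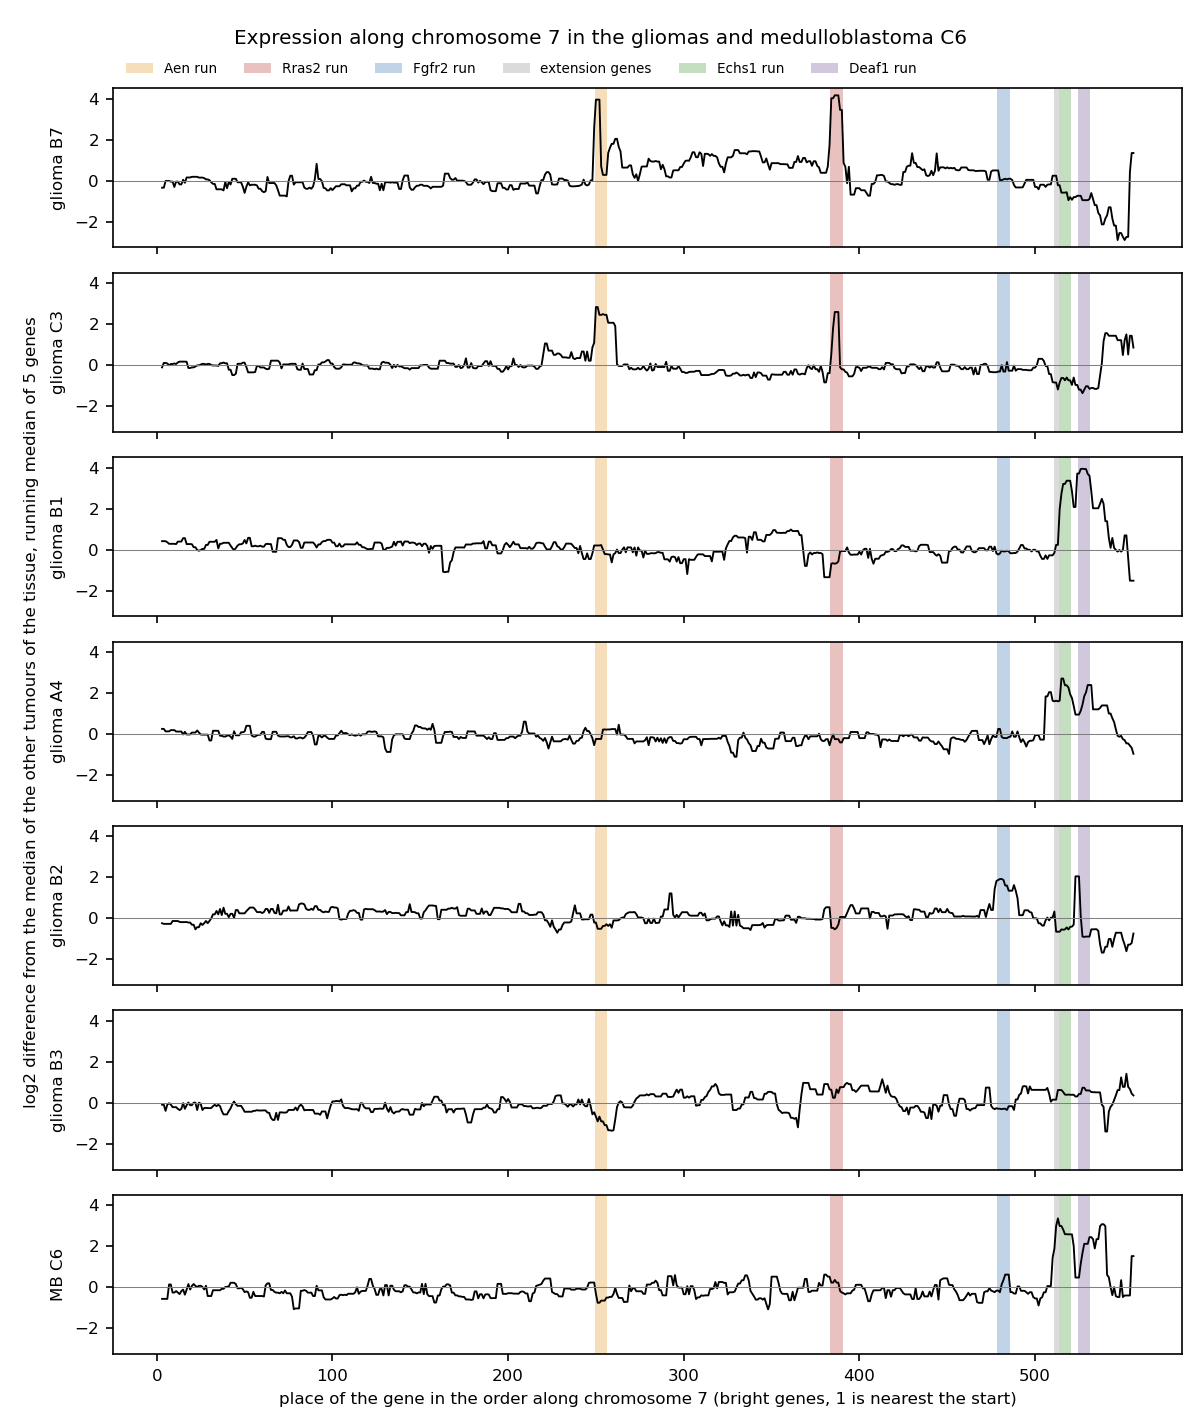
Running median over 5 genes of the log2 difference from the other tumours of the tissue, along the 558 bright genes of chromosome 7 in order, for the 6 gliomas and medulloblastoma C6 (MB C6), with the runs shaded. Gliomas B7 and C3 have narrow peaks at both the Aen and the Rras2 run, gliomas B1 and A4 and medulloblastoma C6 are raised at the Echs1 and Deaf1 runs, and glioma C3 is raised beyond them.

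The Echs1 and Deaf1 runs lie close together near the far end of chromosome 7, and gliomas B1 and A4 and medulloblastoma C6 were raised in both. In glioma B1 all 7 genes of the Deaf1 run were more than 2-fold up, against 2.57% of all tested genes in that tumour, with a median log2 difference of 3.93 and a range of 2.85 for Tmem80 to 4.72 for Ifitm3. All 7 had their highest value of the 28 arrays there. In glioma A4, 6 of the 7 genes of the Echs1 run were more than 2-fold up, against 3.24% of all tested genes in that tumour, with a median of 2.38 and a range of 0.59 for Caly to 3.16 for Echs1. Only Tubgcp2 was higher in glioma A4 than in any other glioma. The Echs1 run was in fact higher in glioma B1, where its 7 genes were all more than 2-fold up with a median of 3.20. It was counted for glioma A4 because it was that tumour's highest run, while the Deaf1 run was the highest of glioma B1.

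Deaf1, a transcription factor, read 836 in glioma B1, 422 in glioma A4 and 419 in medulloblastoma C6. The other gliomas, B7, B2, C3 and B3, had 59.3, 43.7, 46.7 and 93.7, and the other 9 medulloblastomas had 28.4 to 91.8. Its neighbour Tmem80, a predicted membrane protein whose start faces that of Deaf1, read 595 in glioma B1, 429 in glioma A4 and 361 in medulloblastoma C6, against 58.3 to 114 in the other gliomas. The same 3 tumours stood above the rest in both genes. Ptdss2, which makes phosphatidylserine, read 4408 in glioma B1, 1036 in glioma A4 and 1175 in medulloblastoma C6, against 234 to 582 in the other gliomas. Rnh1, the inhibitor of secreted ribonucleases, read 3979.9 in glioma B1 and 692 in glioma A4, against 122 to 274. Phrf1, a PHD and RING finger protein, read 1428 and 349 in gliomas B1 and A4, against 54.9 to 154. B4galnt4, a glycosyltransferase, read 1075 and 175, against 44.5 to 132.

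Ifitm3 differed from the other genes of its run. It encodes an interferon-induced membrane protein that blocks entry of viruses, and it read 7753 in glioma B1 and 1376 in glioma B2, against 277, 287, 135 and 359 in gliomas B7, A4, C3 and B3. Glioma A4 and medulloblastoma C6 (322), which were high in the 6 other genes of the run, were within the range of the other tumours for Ifitm3. Its neighbours on the outer side, Ifitm1 and Ifitm2, had log2 differences of −0.44 and 0.94 in glioma B1 and 2.05 and 2.29 in glioma B2. Glioma B2 was thus raised in 3 neighbouring Ifitm genes, while its log2 differences in the other 6 genes of the run were −1.02 to 0.11.

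Of the 5 dimmer genes inside the Deaf1 run, 3 were more than 2-fold up in glioma B1, at 4.47 for Irf7, 3.09 for Rassf7 and 1.67 for Lrrc56. The raised stretch of glioma B1 went on past the run. Taldo1 and Gatd1 had differences of 3.60 and 2.98 there, with 0.52 for Eps8l2 between them and the run. The running median stayed above 1 over 28 genes from Tubgcp2 to Brsk2, which include all 14 genes of both runs, with a median of 2.86. In glioma A4 it was above 1 from Mapk1ip1 to Psmd13 and from B4galnt4 to Brsk2, with the Ifitm genes between.

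In the Echs1 run the 3 tumours were again the ones above the rest. Echs1, the enoyl-CoA hydratase of mitochondrial fatty acid oxidation, read 1699 in glioma A4, 2619 in glioma B1 and 1297 in medulloblastoma C6, against 123, 185, 183 and 270 in gliomas B7, B2, C3 and B3. Mtg1, a GTPase of mitochondrial ribosome assembly, read 489 in glioma A4, 1182 in glioma B1 and 716 in medulloblastoma C6, against 62.3 to 109 in the other 4 gliomas. Fuom, which interconverts forms of the sugar fucose, read 639.9, 646 and 504.2 in glioma A4, glioma B1 and medulloblastoma C6, against 76.5 to 108. Bet1l, a SNARE protein of Golgi traffic, read 462, 871 and 610 in those tumours, against 68.2 to 156. Ric8a, a chaperone of G protein alpha subunits, read 785, 1679 and 1349, against 136 to 211. In these 5 genes no other glioma overlapped the raised tumours. Tubgcp2 of the gamma-tubulin complex, which nucleates microtubules, read 641 in glioma A4, 327 in glioma B1 and 1174 in medulloblastoma C6, against 66.5 to 126.

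Caly was the exception of this run. It encodes calcyon, a neuronal protein of vesicle traffic, and read 56.2 in glioma A4, 376 in glioma B1 and 443 in medulloblastoma C6. Gliomas B7, B2, C3 and B3 had 35.3, 31.2, 20.3 and 73.0, so that glioma A4 lay within their range. Beyond the run, Sirt3, Psmd13 and Cox8b had differences of 1.37, 1.75 and 1.06 in glioma A4 and of 2.07, 4.03 and 7.67 in glioma B1. Cox8b, a subunit of cytochrome c oxidase best known from muscle, read 2329.9 in glioma B1, against 0.8 to 17.6 in the other gliomas.

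**Figure D3:**
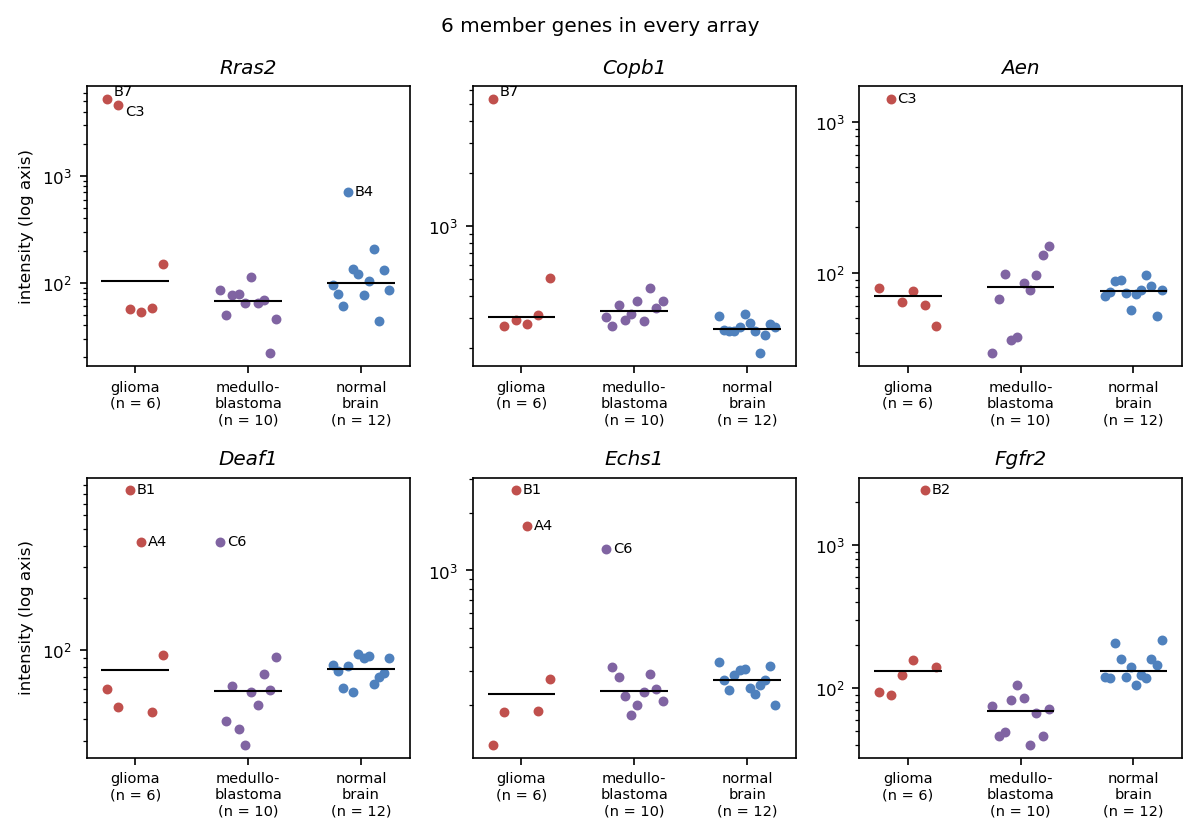
Intensity on a log axis of 6 member genes in every array, with 6 gliomas, 10 medulloblastomas and 12 normal brains, a line at each median and the code of arrays that stand apart. The marked arrays are gliomas B7 and C3 and normal brain B4 for Rras2, glioma B7 for Copb1, glioma C3 for Aen, gliomas B1 and A4 and medulloblastoma C6 for Deaf1 and Echs1, and glioma B2 for Fgfr2.

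The extension genes were raised in medulloblastoma C6 and followed by medulloblastomas B6 and C1 in some of them. All 3 were more than 2-fold above the median of the other medulloblastomas, against 9.39% of all tested genes in that tumour, with log2 differences of 3.56 for Inpp5a, 3.37 for Kndc1 and 1.88 for Adgra1. Inpp5a, a phosphatase of the second messenger inositol trisphosphate, read 958 in medulloblastoma C6, against 51.6 to 324 in the other 9. Kndc1, a Ras exchange factor of neuronal dendrites, read 139, against 4.1 to 116 in the other 9, the highest of which was B6. Adgra1, an adhesion receptor of brain, read 48.6, against 4.7 to 69.2, and medulloblastoma C1 was higher. All 7 genes of the Echs1 run and 6 of the 7 of the Deaf1 run were also more than 2-fold up in medulloblastoma C6, with medians of 2.70 and 2.13. In glioma A4, 2 of the 3 extension genes were more than 2-fold up, against 3.24% of all tested genes in that tumour. These were Inpp5a at 1.59 and Adgra1 at 1.62 from the median of the other gliomas, while Kndc1 was at −0.58.

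In medulloblastomas, mature-neuron markers were high in some of the same tumours. The summed intensity of 5 mature-neuron markers was 10023 in medulloblastoma C6, the highest of the 10, and next came B6 with 5862 and C1 with 5748. For Kndc1 the next were again B6 at 116 and C1 at 43.5. Inpp5a was next highest in B6 at 324, then A6 at 144 and C5 at 122, ahead of C1 at 84.7. For Adgra1 the order was C1 at 69.2, C6 at 48.6 and A6 at 34.8, ahead of B6 at 15.3, and the marker sum of A6 was 2349. Normal brains had 12295 to 17356. None of the markers was at 0 on any array. In normal brain Inpp5a read 1639.6 in C5, 1085 in Z2 and 451 in B2, against 137 to 233 in the other 9. Kndc1 read 683, 564 and 619.5 in those 3 arrays, against 203 to 344. Adgra1 went the other way, with 117, 83.8 and 132 in those 3 arrays, against 231 to 423 in the other 9. The summed granule-neuron markers were also highest in these 3, at 17442, 19396 and 7016, against 730.3 to 2386 in the other normal brains. The part of neuronal RNA in the extension genes was not tested, and in bulk samples fewer cells of a type and less RNA per cell cannot be told apart.

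The Fgfr2 run was the weakest of the 5. In glioma B2, 5 of its 7 genes were more than 2-fold up, against 6.90% of all tested genes in that tumour, with a median log2 difference of 1.88 and a range of 0.59 for Plekha1 to 4.24 for Fgfr2. Fgfr2, a receptor tyrosine kinase for fibroblast growth factors, read 2432 in glioma B2, against 94.3, 156, 123, 89.0 and 141 in gliomas B7, A4, B1, C3 and B3. It read 40.0 to 105 in medulloblastomas and 105 to 217 in normal brains. No other array of the 28 came near the value of glioma B2. Wdr11, a WD-repeat protein of vesicle traffic, read 1291 in glioma B2, against 191 to 282 in the other gliomas. Nsmce4a, a subunit of the SMC5/6 complex of DNA repair, read 1175, against 243 to 374.

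Ate1, which attaches arginine to proteins, read 481 in glioma B2, against 122 to 214 in the other gliomas. Tacc2, a centrosomal coiled-coil protein, read 634, against 113 to 449.9 with glioma C3 the next. Plekha1, which binds a phosphoinositide product of PI3 kinase, read 291, against 138 to 241. These 3 were highest in glioma B2 by less than Fgfr2 was. Htra1, a secreted serine protease, read 1182 in glioma B2 but 1829 in glioma A4, against 106 to 693 in the others. Around the run, Plpp4 on one side and 2310057M21Rik and Pstk on the other had differences of 1.60, 1.74 and 1.35 in glioma B2. The running median was above 1 over 13 genes from Mcmbp to Acadsb.

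Further probe sets of the same genes, read on the same arrays, were mostly high in the same tumours, which is again a description. Of the 38 genes, 20 had further probe sets, 58 in all, of which 47 were bright enough to be used. The tumour that chose the run was more than 2-fold above its fellows in 42 of the 47 and was the highest of its tissue in 32. All 12 of the Rras2 run, all 14 of the Aen run and all 6 of the Deaf1 run, which are all probe sets of Ptdss2, were more than 2-fold up. For the Echs1 run it was 5 of 6, with glioma A4 the highest in none. For the Fgfr2 run it was 3 of 7, and the second probe set of Fgfr2 read 686 in glioma B2, against at most 31.2 in the other gliomas.

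Normal brains with the same code as the tumour lay near the other normal brains in the run medians, although Htra1 of the Fgfr2 run was 1.05 above them in normal brain B2. For the Rras2 run, glioma B7 was higher than normal brain B7 in 7 of 7 genes, with a median log2 difference of 3.50. Glioma B1 was higher than normal brain B1 in 7 of 7 genes of the Deaf1 run, with a median of 3.38. For the Aen run, glioma C3 was higher than normal brain C3 in 7 of 7, with a median of 2.47. The Fgfr2 run was different, with glioma B2 higher than normal brain B2 in 5 of 7 genes and a median of 0.60, since Plekha1 and Htra1 were lower in the tumour by 0.50 and 0.91. Against the other normal brains, the median over the run was 0.14 in normal brain B7, −0.13 in B1, 0.07 in C3 and 0.05 in B2. The extension genes were mostly lower in medulloblastoma C6 than in normal brain C6, at 2.36 for Inpp5a, −0.86 for Kndc1 and −2.55 for Adgra1. No normal brain with the code A4 was used here.

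Genes that work with the run genes were examined from lists of their partners elsewhere in the genome. Few of them were raised. In glioma B7, of 10 core clock genes 1 was more than 2-fold up, Per3 at 1.65, beside 5.55 for Arntl, and their median was 0.49. None of 8 other COPI subunits was, with a median of −0.20 beside 4.17 for Copb1. None of 6 other alpha subunits of the 20S proteasome was, with a median of −0.52 beside 3.45 for Psma1. The 3 other RAS genes tested had a median of 0.11 in glioma B7 beside 6.35 for Rras2. In glioma C3, beside 6.16 for Rras2, 1 of the 3 was more than 2-fold up, Rras at 1.23. The subunit genes of these complexes were therefore not raised along with the member of the run.

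The same was seen in most other runs. In glioma C3 none of 12 other genes of the mitochondrial small ribosomal subunit was more than 2-fold up, with a median of −0.02 beside 2.48 for Mrps11, and neither of the 2 other neurotrophin receptors tested was. In glioma A4 none of 5 other gamma-tubulin complex genes was, with a median of −0.30 beside 2.92 for Tubgcp2. In glioma B2, 1 of 6 genes of the FGF receptor axis was, Fgfr4 at 1.15, while Fgfr3 was at −1.52. Of 4 listed oncogenes of chromosome 7 tested, none was more than 2-fold up in gliomas B7, B1, C3, A4 or B2. In medulloblastoma C6, 2 of the 4 were, against 9.39% of all tested genes in that tumour. The highest there was Cttn at 1.53 and the lowest was Igf2, a fetal growth factor, at −1.76. The largest difference in any of these tumours was that of Igf2 in glioma B7, at −5.74. Igf2 read 77.1 there, against 671 to 7323 in the other gliomas.

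The interferon list of glioma B1 was the main exception. Of 10 interferon response genes 7 were more than 2-fold up there, with a median of 2.98, and besides Irf7 they included Bst2 at 3.65, Rsad2 at 3.33 and Usp18 at 3.24. Irf7 lies inside the Deaf1 run and the other 3 do not. Ifitm3 is itself an interferon response gene, and without it the median of the other 6 genes of its run in glioma B1 was 3.82. In glioma B2, 4 of the 10 were more than 2-fold up, of which Ifitm1 and Ifitm2 are the neighbours of Ifitm3. The part of the interferon response in the values of Ifitm3 was not tested.

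**Figure D4:**
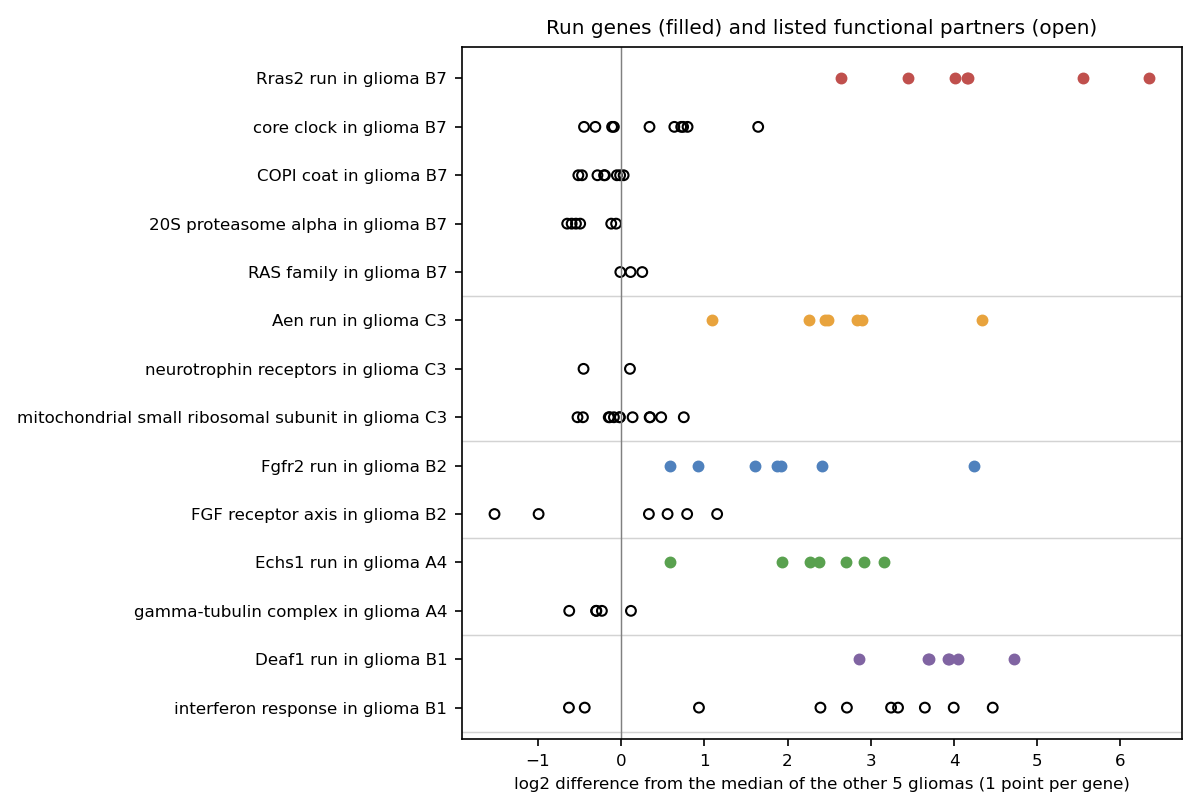
Log2 difference from the median of the other 5 gliomas, 1 point per gene, for the genes of each run (filled) and for listed partners of its genes (open) in the glioma that chose the run. The partner genes lie mostly between −1 and 1, apart from the interferon response genes in glioma B1.

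Facts of the arrays that touch these values were as follows. Each array had been scaled so that its 2% trimmed mean was 100 to 3 digits, and the median intensity was 18.8 to 27.8. No 2 arrays were identical. Oligodendrocyte precursor markers summed to 5502 to 8832 in gliomas, against 189 to 1325 in normal brains, and granule precursor markers to 1290.4 to 5739.5 in medulloblastomas, against 49.2 to 629 in normal brains, with medulloblastoma C6 the lowest tumour. Glioma B7 and glioma B2 had granule-neuron sums of 4931 and 4026, against 523 to 1320 in the other gliomas, and the part of such tissue in their runs was not tested. The ratio of 3′ to 5′ actin signal, which is higher in degraded RNA, was 1.73 to 2.78 in gliomas, 1.49 to 4.38 with a median of 2.57 in medulloblastomas and 1.99 to 6.21 with a median of 3.47 in normal brains. Its part in the comparison of medulloblastoma with normal brain was not tested. Rictor averaged 171 ± 63.5 in Rictor-null medulloblastomas (SD, n = 5) and 251 ± 25.9 in p53-null-only ones (n = 3), was 144 in the Rictor-null glioma C3, against 265 ± 59.6 in the heterozygous gliomas (n = 4), and averaged 278 ± 95.5 and 282 ± 60.0 in Rictor-null and heterozygous normal brains (n = 5 each). Whether its probe set lies in the deleted part was not given.

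The contrast of medulloblastoma with normal brain took no part in choosing the 35 genes of the runs. In this comparison 3 of the 38 genes were higher in medulloblastoma (32.2% of all tested genes) and 12 were lower (32.0% of all) at an adjusted p under 0.05 in limma, with Benjamini-Hochberg adjustment over the 13931 genes. Of the 35 run genes alone, 3 were higher and 10 lower. The extension genes were chosen in a medulloblastoma of this comparison and are given as values with no test. Adgra1, Kndc1 and Caly, with mean log2 intensities of 4.40, 4.67 and 5.39 in medulloblastomas, against 8.03, 8.37 and 8.51 in normal brains, passed the brightness limit of 6 only through the arrays where they are high. AU020206 likewise had a mean of 6.95 in medulloblastomas, against 5.33 in normal brains. Caly and AU020206 are therefore given with no test as well, and of the other 33 run genes 2 were higher and 9 lower. The median log2 difference was −0.33 over the members and 0.0068 over all tested genes. The gliomas, which hold the values that chose the members, entered the shared spread of this fit. With the 22 medulloblastomas and normal brains alone, 6 members were higher (32.3% of all genes) and 14 lower (31.9% of all), the further ones being Copb1, Psma1 and Phrf1 higher and Ntrk3 and Tacc2 lower. These counts still include AU020206 among the higher and Adgra1, Kndc1 and Caly among the lower, which are given with no test.

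Adgra1 ranged from 4.7 to 69.2 with a median of 9.6 in medulloblastomas, against 83.8 to 423 with a median of 308 in normal brains, and the groups did not overlap. Its log2 difference was −3.90 (SE 0.39). Kndc1 ranged from 4.1 to 139 with a median of 11.3 in medulloblastomas, against 203 to 683 with a median of 293 in normal brains, again without overlap, and differed by −3.35 (SE 0.40). Both of its other probe sets, with mean log2 intensities of 3.45 and 3.39, lay below the limit of 3.88 for testing. Caly had a median of 23.6 in medulloblastomas and 425 in normal brains and differed by −3.19 (SE 0.51). For Caly the groups overlapped through medulloblastoma C6, which at 443 lay above the median of the normal brains.

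Among the genes given with a test, Htra1 had the largest fall. It had 63.6 to 472 in medulloblastomas, against 741 to 2221 in normal brains, with no overlap and a log2 difference of −2.86 (SE 0.40, limma adjusted p 6.74e-07). Smaller falls passed the test for Spon1 (−1.44), Fuom (−1.28), Btbd10 (−1.24), Arntl (−1.09), Plekha1 (−0.98), Mrpl46 (−0.93), Ate1 (−0.89) and Fgfr2 (−0.88). The call of Arntl, with an adjusted p of 0.0498 in limma, was lost in 26 of 33 other settings, and that of Fgfr2, at 0.0392, in 16. With the gliomas, which hold the values that chose both genes, left out of the fit, Arntl was −1.12 (SE 0.17, limma adjusted p 5.15e-06). Fgfr2 was then −0.91 (SE 0.16, limma adjusted p 3.00e-05), in a setting chosen after seeing the data. Arntl ranged from 39.9 to 99.6 in medulloblastomas and from 99.9 to 224 in normal brains, without overlap. Fgfr2 ranged from 40.0 to 105 in medulloblastomas and from 105 to 217 in normal brains, so that the groups met at their edges. The higher genes were Ifitm3 at 1.07 (SE 0.43, limma adjusted p 0.0307) and Nsmce4a at 0.65 (SE 0.20, limma adjusted p 0.00553). AU020206 had 51.1 to 309.5 in medulloblastomas, against 17.4 to 55.3 in normal brains, a difference of 1.77 (SE 0.41) given with no test.

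Within the Fgfr2 run the directions differed. Nsmce4a was higher and Fgfr2, Ate1, Plekha1 and Htra1 were lower. In the Rras2 run Spon1, Btbd10 and Arntl were lower and the other 4 did not pass. In the Aen run Mrpl46 was lower. Mrps11, which shares the stretch between their starts, did not pass, at −0.07 (SE 0.26). In the Deaf1 run Ifitm3 alone passed. Rras2 itself did not pass, at −0.72 (SE 0.69, limma adjusted p 0.376).

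**Figure D5:**
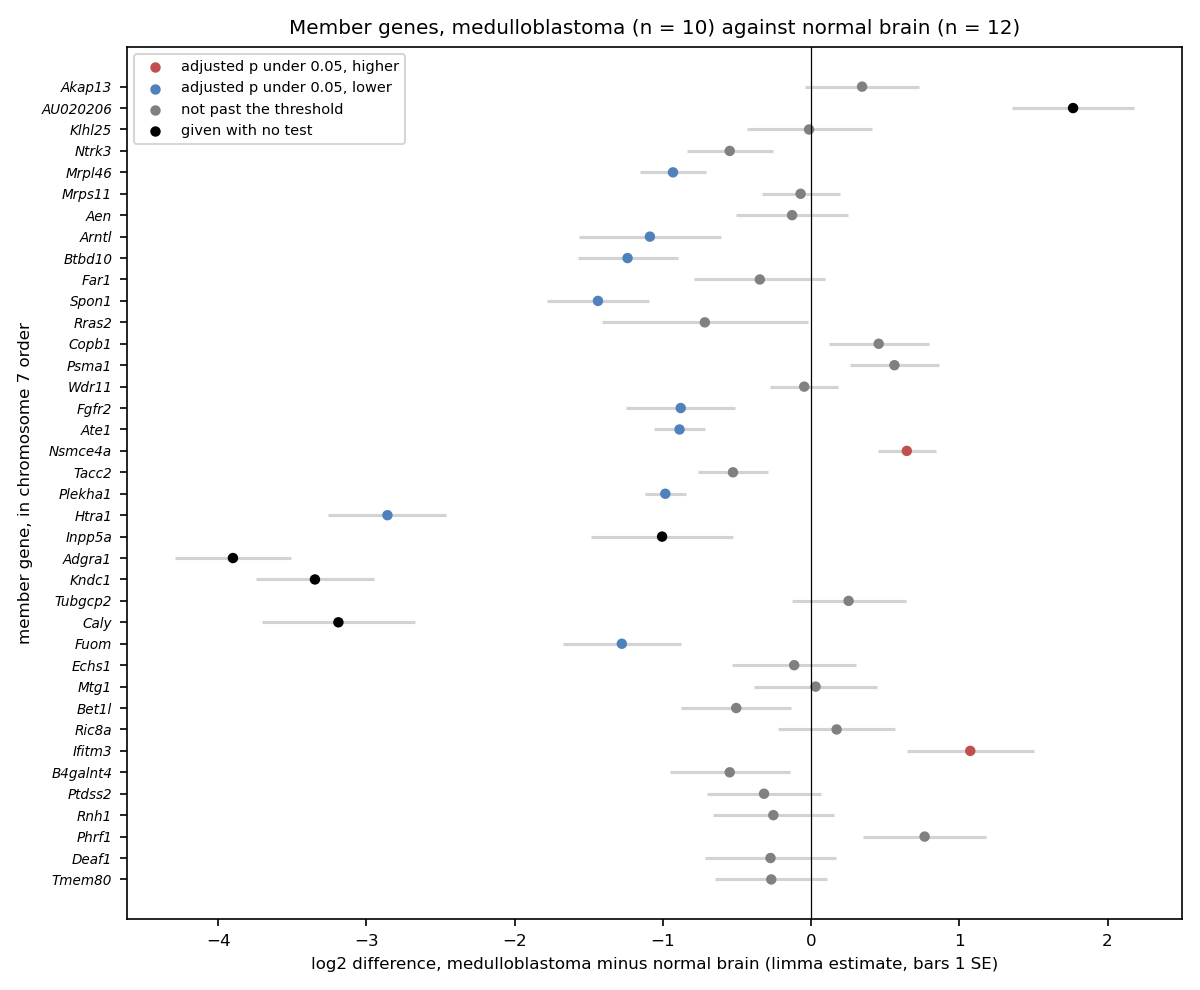
Log2 difference of each member gene between medulloblastoma (n = 10) and normal brain (n = 12) from limma, with bars of 1 SE, in chromosome 7 order from top to bottom, and black points for genes given with no test. Adgra1, Kndc1, Caly and Htra1 lie farthest to the left, below −2.8, and AU020206 farthest to the right at 1.77.

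The partner lists gave their own counts in medulloblastoma against normal brain, beside 32.2% of all tested genes higher and 32.0% lower. Of 10 core clock genes 1 was higher and 8 were lower, with a median log2 difference of −1.05, and Arntl was lower too. Of 10 interferon response genes 7 were higher and none lower, with a median of 1.17, and Ifitm3 was higher. Of 6 proteasome alpha genes 5 were higher and none lower (median 0.74), and of 12 mitochondrial small subunit genes 7 and none (median 0.32). Psma1 at 0.56 (SE 0.30) and Mrps11 did not pass. With the gliomas left out of the fit, Psma1 was 0.47 (SE 0.12) and passed, and Mrps11 again did not. Of 8 COPI genes 3 were higher and none lower (median 0.18), and of 5 gamma-tubulin complex genes 3 and none (median 0.71). Of 6 genes of the FGF receptor axis 2 were higher and 3 lower (median −0.36). Of 3 RAS genes 1 was higher and 1 lower (median −0.34), as of 2 neurotrophin receptors (median 0.58). Of the 4 listed chromosome 7 oncogenes 1 was higher and none lower (median 0.37).

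The study's question on Rictor was asked of the members in normal brain and in medulloblastoma. Between Rictor-null and Rictor-heterozygous normal brains (n = 5 each) no member passed in either direction, and neither did any of the other tested genes (0% higher and 0% lower). At an unadjusted p under 0.05 there were 439 genes in limma, 2 of them members, Ifitm3 at −0.93 (SE 0.29) and Htra1 at −0.52 (SE 0.20), and the lowest adjusted p of a member was 0.9997. The median difference over the members was −0.0049.

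When the 5 Rictor-null medulloblastomas were set against the 3 with p53 loss only, no member passed, against 0.00718% of all tested genes higher and 0% lower. The 1 gene that passed in limma was Tmem267, named after its value was seen. At an unadjusted p under 0.05 there were 605 genes, with Ntrk3 at −1.56 (SE 0.45) and Mrpl46 at 0.72 (SE 0.32) among the members, and the lowest adjusted p of a member was 0.981. The median difference over the members was 0.42, against 0.056 over all genes. It was 0.95 over the Echs1 run and 0.83 over the Deaf1 run, for which medulloblastoma C6, 1 of the 5 Rictor-null tumours, held the highest values. The members include the 3 extension genes, with a median of 0.70, which were chosen for being high in that same tumour. Their values in this comparison and in the interaction below are therefore partly set by that choice. An interaction term, asking whether Rictor loss acted differently in the tumours than in normal brain, passed for no gene, with 299 at an unadjusted p under 0.05 in limma and no member among them.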

How the data were processed

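The deposited table held 1 intensity on a linear scale per probe set and array (45101 probe sets, 28 arrays), made by the authors with MAS5 and GCOS per the submitters' processing notes; their versions and settings were not given in the sources used here. Each array had, by its values, been scaled to a 2% trimmed mean of 100. All columns were matched to a sample. The number of arrays limits the precision.

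Probe sets with exactly 1 symbol in the platform annotation were used (34945 of 45101, without the 64 controls), the brightest per gene. Values were taken as log2(intensity + 6.3). The 13931 genes with a mean above 3.88 (percentile 30 of the probe sets) were tested. Runs were means over 7 neighbours in the RefSeq order of GRCm38.p6, among genes with a mean log2 above 6, the limit at which the 5 runs came out as given. That order was used only to find neighbours. Tumour differences are descriptive, with 2-fold as the limit. Comparisons used limma 3.58.1 in R 4.3.3 (lmFit, eBayes with trend, two-sided, Benjamini-Hochberg), with Python 3.11.15, matplotlib 3.10.9, pandas 2.3.3 and numpy 2.4.6. Medulloblastoma was compared with normal brain in a model of the 28 arrays with terms for tissue and genotype, and the Rictor comparisons within the 10 medulloblastomas or 12 normal brains. The steps were tested on simulated data.

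The members and lists were chosen with earlier results of these data known. All 38 members, the 3 nearest genes on each side of a run and the listed partners could be named. Tumour and normal brain share title codes, but the labels do not say that a code marks one animal. The medulloblastoma pairs A6, B4 and C1 also join arrays of different title prefixes. Same-code deviations correlated at −0.07 to 0.35 over 7 medulloblastoma pairs, 5 of them over 0.1, and at −0.12 to 0.24 over 4 glioma pairs. The arrays were not treated as paired, and a fit with a block on the code is given below. Alternatives tried were other pseudocounts, quantile normalization, no filter, other probe sets, blocks on title prefix or code, and leaving out each array in turn.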

Additional observations from a re-analysis of the deposited data

Results flagged for a closer look

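Within groups of 4 or 5 arrays, the highest or lowest array stood apart from the others by Dixon's gap test for 37 of 176 series of values, or 21.0%. Chance flags about 1 in 20 of independent groups, a rate that does not apply here: in 9 of the 37 the array was the tumour in which the genes had been chosen for standing apart, and neighbours of a run raised in one tumour are not independent of each other. The values are a description. No cause was tested.

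Of these, 14 were among the 4 Rictor-heterozygous gliomas. Glioma B7 was highest for Arntl (2809), Btbd10 (3735), Far1 (3695), Spon1 (4395) and Psma1 (5806), for the mean log2 level of the Rras2 run (12.08), and for Akap13 (3155) and AU020206 (3261). Glioma B1 was highest for Fuom (646), Mtg1 (1182) and Ric8a (1679). Glioma B2 was highest for Fgfr2 (2432) and Nsmce4a (1175) and lowest for Adgra1 (19.6).

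Among the 5 Rictor-null medulloblastomas all 10 came from C6. It was highest for Ptdss2 (1175), Deaf1 (419), Tubgcp2 (1174), Fuom (504.2), Echs1 (1297), Bet1l (609.8), Ric8a (1349) and Inpp5a (958) and for the mean log2 level of the Echs1 run (9.65), and lowest for Mrps11 (90.4).

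Normal brains gave the other 13. Among the Rictor-null ones all 6 came from C5, which was highest for Ntrk3 (251), Tacc2 (694) and Inpp5a (1639.6) and lowest for Mtg1 (121), Ric8a (115) and Adgra1 (117). Among the Rictor-heterozygous ones B2 was highest for Mrpl46 (389), Htra1 (2221) and Inpp5a (451) and for the mean log2 level of the Fgfr2 run (8.87), and lowest for Caly (154) and for the Echs1 run (7.36). Normal brain B7 was highest for Copb1 (313). C5 and B2 are also among the 3 normal brains with the highest granule-neuron markers.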

How the results depend on the processing

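Of 81 recomputed run medians, 74 moved by less than 1 SD of the other tumours. That SD is over the run medians of the other tumours, some of which were raised in the same run. For the Echs1 run they include glioma B1 at 3.20, so the limit is wide. All settings of that run fell within it, although its second probe sets gave 1.86 for Bet1l and 1.71 for Ric8a in glioma A4. With the second brightest probe set the Rras2 run had a median of 5.43, the Aen run 3.77, the Fgfr2 run 0.99 and the extension genes 0.25. Those medians cover only genes with a second probe set, 5 in each of these runs and 2 extension genes. Inpp5a has none, and that of Kndc1 lies below the limit for testing. The Fgfr2 run was 1.69 against the mean of the other gliomas and 0.60 against normal brain B2. The extension genes reversed against normal brain C6, at −0.86. Leaving out 1 other tumour at a time gave 4.03 to 4.20 for the Rras2 run, 3.42 to 4.02 for the Deaf1 run, 2.45 to 2.56 for the Aen run, 2.24 to 2.52 for the Echs1 run, 1.74 to 1.98 for the Fgfr2 run and 3.08 to 3.39 for the extension genes.

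In medulloblastoma against normal brain, leaving out 1 array at a time gave 8532 to 9058 called genes, 2 to 3 members higher and 10 to 15 lower. Member counts here are over all members, with Adgra1, Kndc1, Caly and AU020206, given with no test, among them. Without the gliomas (a setting chosen after seeing the data) 6 members were higher, and also without medulloblastoma C6 there were 7 higher and 19 lower. Ate1 reversed to 0.070 with the median over its probe sets (limma adjusted p 0.705), and that setting also ended the calls of Nsmce4a and Plekha1. Kndc1, given with no test, also did not stay past the threshold there. Both other probe sets of Kndc1 lie below the limit for testing. The call of Ifitm3 was lost in 3 of 33 settings, among them without medulloblastoma C2 and without C5. Elsewhere the cause was not tested. Whether a title code marks one animal is not in the labels. With a replicate block on the code in place of genotype, 8298 genes, 2 members higher and 11 lower were called.

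No member was called in either Rictor comparison under any setting run. For Rictor-null against p53-null-only medulloblastoma, 2 genes were called with a pseudocount of 1, 0 with the title prefix as a block, and 0 to 3 when 1 array was left out, with 3 without Rictor-null C4 or C6. In normal brain 0 to 1 were called when 1 array was left out. With 1 tumour per run there is no replicate, and dim genes such as Adgra1 in medulloblastoma lie near the pseudocount.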

Other observations

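Gliomas B7 and C3, of different Rictor genotypes, were the only tumours of the 16 in which Rras2, Far1, Akap13 and Klhl25 were all more than 2-fold above the median of their tissue. Of the 38 member genes, 10 were more than 2-fold up in glioma B7, 12 in C3, 14 in B1, 16 in A4, 6 in B2 and 2 in B3, and 18 in medulloblastoma C6. The shares of all tested genes in gliomas B7, C3, B1, A4 and B2 were 4.66%, 2.38%, 2.57%, 3.24% and 6.90%. In medulloblastoma C6 the share was 9.39%, and none was computed for glioma B3. Except in glioma B3, these counts include the values that chose the members.

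The normal brain with the highest Rras2, B4 at 701, also had the highest summed oligodendrocyte precursor markers of the 12, at 1325, against 189 to 1101 in the others. Its Rras2 was below that of gliomas B7 and C3. The next highest marker sum was in normal brain B7, with Rras2 at 120. The next highest Rras2 of the normal brains, 208 in C3, stood beside a sum of 682. A link between Rras2 and these markers was not tested. Other tumours had highest runs outside chromosome 7. In medulloblastoma C4 the run held Tro and Maged2 on the X chromosome with a mean of 3.09, in B6 it held Ccnd2, a cyclin, on chromosome 6 with a mean of 2.63, and in C5 it held Mycn, a transcription factor, on chromosome 12 with a mean of 2.19.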
